A study of Mus musculus with 6 samples.

Results

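The 10 integrin subunit genes described here were chosen by symbol as subunits that glia and leukocytes of the brain use. They are the α-subunit genes Itga4, Itga5, Itga6, Itgal and Itgav and the β-subunit genes Itgb1, Itgb2, Itgb4, Itgb5 and Itgb8. Each of the 6 libraries listed 24421 gene symbols, and all 10 members were among them. All 10 were also tested, with the 18413 genes whose normalized counts averaged 1 or more. A normalized count is the number of reads on a gene divided by 1 size factor for its library.

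The libraries came from TurboRFP-positive cells of the mouse olfactory bulb (OB), sorted by flow cytometry to ask what loss of the transcription factor Sox9 does to the RNA of adult astrocytes. The 3 Sox9 KO mice were Sox9fl/fl, with LoxP sites around exons of Sox9, and the 3 control mice were C57BL/6J mice, wild type at Sox9. Both groups received AAV-GFAP-iCre-P2a-TurboRFP by injection into the OB, so the controls also expressed Cre and the red reporter, and cells were taken 4 weeks later from males. The GFAP promoter, which is active in astrocytes, drove both Cre and TurboRFP. The methods state for the study in general that mice were adult, with no age for this experiment itself. Each library came from 1 mouse, so the spread within a group joins differences between mice with those of sorting and library preparation.

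Integrins are receptors in the cell membrane that join an α to a β subunit. The pair decides the ligand: αv pairs hold proteins with an RGD motif, and some release TGF-β from its latent complex, α6 pairs hold laminins of the basement membrane, α5β1 holds fibronectin, α4β1 holds VCAM-1 on endothelium, and β2 pairs, found on leukocytes, hold ICAMs and complement C3 fragments. In the brain, astrocyte endfeet contact the vascular basement membrane through laminin and αv receptors, and microglia carry αMβ2 and αvβ5. The subunits reach the surface as pairs, so RNA of a single subunit does not give the amount of a receptor.

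The marker genes of the sorted cells differed between the groups. Sox9 itself stood at 5185, 6562 and 4921 normalized counts in the control mice and at 52.6, 64.3 and 57.7 in the KO mice. All 13 astrocyte markers tested were lower in the KO libraries, and their sum ranged from 549239 to 615638 normalized counts in controls and from 39208 to 51186 in KO. Of 14 microglia and macrophage markers 13 were higher and Fcrls was not called, and their sum ranged from 210484 to 239020 in controls and from 833589 to 968336 in KO. None of these 27 markers was at 0 in any library, so both kinds of RNA were present in both groups. Markers of other glia and of neurons were lower as well, with 6 of 6 oligodendrocyte precursor markers (sums 6820 to 7717 in controls and 578 to 907 in KO), 9 of 10 neuron markers (17892 to 24261 and 2660 to 4850), 8 of 8 oligodendrocyte markers and 5 of 7 olfactory ensheathing markers called lower. Of 10 border macrophage and monocyte markers 4 were higher (Mrc1, Ms4a7, H2-Ab1 and Cd74, the last 35.6-fold) and 4 lower (Cd163, F13a1, Pf4 and Lyve1, the last 7.01-fold). Of 4 B cell markers tested 1 was higher. Of 5 neutrophil markers 4 were lower, though S100a9 and Camp overlapped between the groups. The sum of the neutrophil markers ranged from 538 to 4496 in controls, with control replicate 2 the highest for each marker, and from 98.7 to 539 in KO. The part of these shifts in the integrin results was not tested. In bulk RNA of sorted cells, fewer cells of a type cannot be told apart from less RNA per cell. The libraries held 18242129 to 86906527 reads on genes, and 1 read was worth 0.395 to 1.58 normalized counts.

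Of the 10 subunit genes, 6 rose in the KO libraries (Itga4, Itga5, Itgal, Itgb1, Itgb2 and Itgb5), 2 fell (Itgb4 and Itgb8) and 2 were not called (Itga6 and Itgav). A gene was called at a Benjamini-Hochberg adjusted p of 0.05 over all genes tested by limma and a change of at least 1.5-fold. Calls were common in this comparison, with 22.2% of all genes called higher, 28.8% called lower and 51% called in either direction, so the members' 60% higher and 20% lower are to be read against those shares. The median log2 fold change was 1.03 over the members and -0.07 over all genes tested. Of all called genes 56.4% were lower, and 43.2% under quantile scaling and 67.8% under scaling to the same total, while 6 members were called higher under each of these. In 9 members the KO and control libraries did not overlap, 7 of them with every KO library higher, against 67.2% of all genes without overlap, 32.4% with KO higher and 34.7% with KO lower. Summed over the members, the normalized counts ranged from 38039 to 41961 in controls and from 66475 to 69967 in KO.

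**Figure D1:**
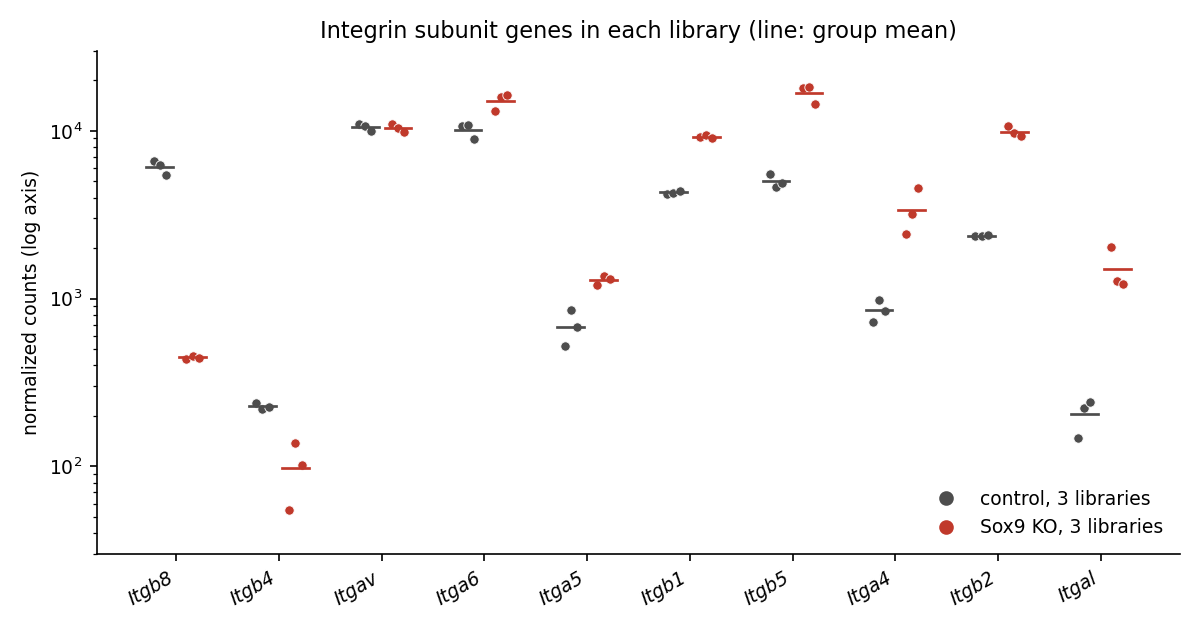
Normalized counts on a log axis for each of the 10 integrin subunit genes, 1 point per library, with 3 control and 3 Sox9 KO mice and a line at each group mean. Itgb8 fell from a mean of 6114 to 446, Itgal rose from 204 to 1508, and the Itgav libraries lay between 9800 and 11009 with the groups overlapping.

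The αv subunit and its partners moved in different directions. Itgav encodes αv, the common α subunit of receptors for vitronectin, fibronectin and the latent TGF-β complex, and lies on the plus strand of chromosome 2 at 83724397 to 83806916 (mm10, as are the coordinates that follow). Its normalized counts were 10978, 10738 and 9919 in controls and 11009, 10326 and 9800 in KO. The groups overlapped, the log2 fold change was -0.02 with a 95% interval of -0.22 to 0.17, and limma gave an adjusted p of 0.83. Under scaling to the same total or by quantiles the value was -0.27 or -0.52, still under 1.5-fold, but limma then gave an adjusted p of 0.022 or 0.00029. Scaling to the same total without the ribosomal RNA gene Rn45s gave -0.35 with an adjusted p of 0.0041 from limma. Whether Itgav was level or slightly lower in KO thus depended on the scaling. Exons of Gm13684 lie on the other strand over 634 of the 10744 exon bases of Itgav.

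Itgb8 encodes β8, which pairs with αv alone and, on brain glia, activates latent TGF-β. The gene lies on the minus strand of chromosome 12 at 119158022 to 119238802. It was at 6640, 6221 and 5481 normalized counts in controls and at 439, 457 and 444 in KO, from 442, 1157 and 292 reads. Every KO library lay far below every control library, and the highest KO value was 4.09% above the lowest. The mean fell 13.7-fold, from 6114 ± 587 to 446 ± 9.29 (SD, n = 3 each), with a log2 fold change of -3.77 (SE 0.10) and an adjusted p of 4.4e-09 from limma. Of all genes tested, 2.98% had a lower log2 fold change.

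Itgb5 encodes β5, the partner of αv in a receptor for vitronectin and for MFG-E8 on dying cells, and lies on the plus strand of chromosome 16 at 33829665 to 33949338. It moved the other way. Its normalized counts were 5506, 4593 and 4875 in controls and 17959, 18287 and 14374 in KO, so the lowest KO library stood well above the highest control. The mean rose 3.38-fold, from 4992 ± 468 to 16873 ± 2170, with a log2 fold change of 1.75 (SE 0.12) and an adjusted p of 4.8e-07 from limma.

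The promoters of these αv-receptor genes are shown because Itgav was not called, Itgb5 rose and Itgb8 fell, although β5 and β8 each form a receptor with αv. Each line holds the 250 bases before the RefSeq start site, 5′ to 3′ on the strand of the gene, on GRCm38.p6, the same assembly as mm10. The gene spans given above are from GENCODE M21. For Itgb8 the RefSeq start lies inside that span, so its window is within the GENCODE gene and not before it. Capitals mark a match to the PU.1 motif GAGGAAGT or its reverse complement ACTTCCTC, PU.1 being the transcription factor that directs myeloid genes. The windows are chr2:83724147-83724396 (plus) for Itgav, chr16:33829415-33829664 (plus) for Itgb5 and chr12:119238277-119238526 (minus) for Itgb8.
Itgav: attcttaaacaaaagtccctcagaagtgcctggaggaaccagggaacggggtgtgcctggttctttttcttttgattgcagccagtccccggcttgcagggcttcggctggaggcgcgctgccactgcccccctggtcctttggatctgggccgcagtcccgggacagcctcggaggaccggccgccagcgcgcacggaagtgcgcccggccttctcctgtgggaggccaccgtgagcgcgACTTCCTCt
Itgb5: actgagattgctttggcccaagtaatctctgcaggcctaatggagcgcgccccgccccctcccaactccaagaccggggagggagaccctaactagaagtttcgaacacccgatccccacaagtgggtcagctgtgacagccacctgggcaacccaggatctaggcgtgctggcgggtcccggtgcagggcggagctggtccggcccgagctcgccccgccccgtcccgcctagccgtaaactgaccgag
Itgb8: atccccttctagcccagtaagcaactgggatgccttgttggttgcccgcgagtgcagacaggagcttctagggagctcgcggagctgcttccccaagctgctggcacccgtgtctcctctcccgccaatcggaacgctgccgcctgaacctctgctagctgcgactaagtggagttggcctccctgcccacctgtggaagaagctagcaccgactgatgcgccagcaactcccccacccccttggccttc

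A window was found for 6 of the 10 members (Itga4, Itga5, Itgav, Itgb1, Itgb5 and Itgb8). The SOX motif AACAAT, searched on both strands as AACAAT and ATTGTT, was in 0 of the 6 windows, against 9.42% of the 32851 promoter windows of the same length. The PU.1 motif was in 1 of the 6, that of Itgav, on the minus strand from base 9 to base 2 before the start, against 2.44% of all windows. The motifs do not overlap. The G and C content was 64.4% for Itgav, 65.2% for Itgb5 and 62.4% for Itgb8, against a median of 52.4% over all windows. A match describes the letters only.

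Itga6 and Itgb4 encode α6 and β4, which together form the laminin receptor that anchors cells to a basement membrane, while α6 also pairs with β1. Itga6, on the plus strand of chromosome 2 at 71745616 to 71858416, was at 10625, 10756 and 8986 normalized counts in controls and at 13042, 15823 and 16354 in KO. All KO libraries were above all controls, and the mean went from 10122 ± 986 to 15073 ± 1779, a log2 difference of 0.57 (SE 0.11) with an adjusted p of 0.0014 from limma. This was 1.49-fold and so just short of the fold limit. edgeR on the recovered reads gave 0.63 and called it. Limma also called it without control replicate 1 (0.61), control replicate 2 (0.62) or KO replicate 1 (0.67). Quantile scaling gave 0.05 with an adjusted p of 0.74 from limma. Scaling to the same total gave 0.33 (adjusted p 0.053, limma), and without Rn45s 0.245 (adjusted p 0.11, limma). Whether Itga6 rose in KO thus depended on the scaling.

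Itgb4, on the plus strand of chromosome 11 at 115974709 to 116008412, was at 238, 219 and 225 normalized counts in controls and at 54.6, 139 and 102 in KO. The KO mice differed more among themselves than the controls did, and the highest of them still lay below every control. The mean fell 2.31-fold, from 227 ± 9.84 to 98.3 ± 42.1, with a log2 fold change of -1.30 (SE 0.31) and an adjusted p of 0.0043 from limma. The KO values rested on 55, 351 and 67 reads, and under quantile scaling the log2 fold change of Itgb4 was -0.63 with an adjusted p of 0.062, which lost the call. Endothelial cells also use β4, and of 9 endothelial markers 5 were lower and 2 higher. Their part in the result was not tested. B230344G16Rik has exons on the opposite strand over 537 of the 7015 exon bases of Itgb4, and the sources used here do not say whether counting used the strand.

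Itgb1 encodes β1, the partner of most laminin, collagen and fibronectin receptors, and is carried by glia, vessels and leukocytes alike. The gene, on the plus strand of chromosome 8 at 128685654 to 128733200, was at 4219, 4282 and 4404 normalized counts in controls and at 9214, 9468 and 9007 in KO. The libraries within each group lay close together and the groups were far apart. The mean rose 2.15-fold, from 4302 ± 94.1 to 9230 ± 231, with a log2 fold change of 1.10 (SE 0.08) and an adjusted p of 8.6e-07 from limma.

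Itga5 encodes α5 of the fibronectin receptor α5β1 and lies on the minus strand of chromosome 15 at 103344286 to 103366763. Its normalized counts were 519, 851 and 673 in controls and 1209, 1363 and 1313 in KO, without overlap. The mean rose 1.90-fold, from 681 ± 166 to 1295 ± 78.3, with a log2 fold change of 0.95 (SE 0.17) and an adjusted p of 0.00054 from limma. It was the smallest of the called rises among the members.

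Itga4 encodes α4, which with β1 holds VCAM-1 and guides leukocytes across endothelium, and lies on the plus strand of chromosome 2 at 79255426 to 79333123. It was at 729, 975 and 842 normalized counts in controls and at 2422, 3195 and 4529 in KO. Every KO library was above every control, although the highest KO mouse had 1.87 times the level of the lowest. The mean rose 3.98-fold, from 849 ± 123 to 3382 ± 1066, with a log2 fold change of 1.96 (SE 0.20) and an adjusted p of 1.2e-05 from limma. Exons of Cerkl cover 1124 of the 13978 exon bases of Itga4 on the other strand.

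The leukocyte subunits rose the most. Itgb2 encodes β2 (CD18), the β subunit of the leukocyte receptors αLβ2 and αMβ2, and lies on the plus strand of chromosome 10 at 77530252 to 77565708. Its normalized counts were 2359, 2348 and 2391 in controls and 10716, 9635 and 9335 in KO. The controls were nearly level and all KO libraries far above them. The mean rose 4.18-fold, from 2366 ± 22.4 to 9895 ± 726, with a log2 fold change of 2.06 (SE 0.09) and an adjusted p of 3e-08 from limma.

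Itgal encodes αL (CD11a), which with β2 forms the receptor by which leukocytes hold ICAM-1, and lies on the plus strand of chromosome 7 at 127296260 to 127335138. It was at 148, 222 and 243 normalized counts in controls and at 2029, 1275 and 1218 in KO. KO replicate 1 was the highest, and the other two KO mice were also far above every control. The mean rose 7.38-fold, from 204 ± 50.1 to 1508 ± 453, with a log2 fold change of 2.87 (SE 0.23) and an adjusted p of 2.1e-06 from limma, and 99.2% of all genes had a lower log2 fold change. Lymphocytes also carry αL: of 10 T and NK cell markers 8 were tested and 2 were higher, Cd4 and Nkg7, while Cd3e averaged 9.16 normalized counts in controls and 13.9 in KO and Cd3d 4.99 and 3.17. Their part in the rise of Itgal was not tested.

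**Figure D2:**
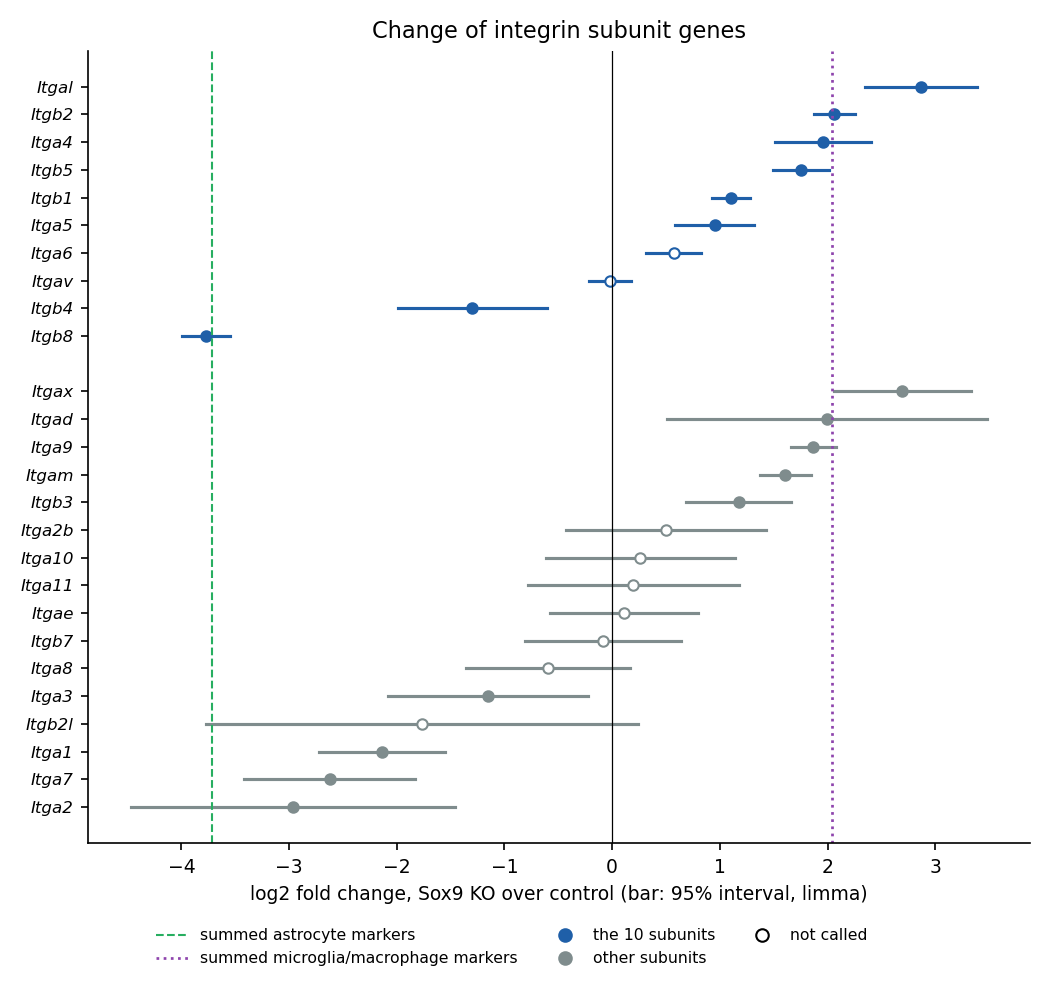
Log2 fold change of KO over control for the members and the other integrin subunits tested, with 95% intervals from limma, filled points for called genes and open points for the rest. Lines stand at the change of the summed astrocyte markers (-3.72) and of the summed microglia and macrophage markers (2.04); Itgb8 at -3.77 and Itgb2 at 2.06 lie on these lines.

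The member genes also differed in level once divided by exon length, in normalized counts per kilobase of summed exons. In controls Itgb5 was the highest at 1405 ± 132, followed by Itga6 at 1122 ± 109, Itgb1 at 1054 ± 23.1, Itgav at 981 ± 51.7, Itgb2 at 775 ± 7.35 and Itgb8 at 553 ± 53.1. Well below these came Itga5 at 138 ± 33.7, Itga4 at 60.7 ± 8.81, Itgb4 at 32.4 ± 1.40 and Itgal at 31.1 ± 7.62. In this order Itga6 overlapped with Itgb1, and Itgb4 with Itgal, so these neighbours did not differ beyond their spread. In KO Itgb5 was again first at 4749 ± 611, and Itgb2 moved up to the second place at 3242 ± 238. Itgb1 followed at 2262 ± 56.6, then Itga6 at 1670 ± 197, Itgav at 966 ± 56.4, Itga5 at 262 ± 15.9, Itga4 at 242 ± 76.2 and Itgal at 229 ± 68.9, the last 3 overlapping between neighbours. Itgb8 at 40.4 ± 0.84 and Itgb4 at 14.0 ± 6.00 were last. With the longest transcript as length, Itga6 was first in controls at 2349 and second in KO at 3497, ahead of Itgb2 at 3332. In controls Itgav at 1495 then stood above Itgb1 at 1128, and Itgal above Itgb4. In KO Itga4 then stood above Itga5. These places, with that of Itgb2 in KO, thus depended on the gene model. In their share of the members' summed normalized counts, Itgb8 went from 14.4 to 15.8% in controls to 0.64 to 0.67% in KO, Itgb2 from 5.62 to 6.29% to 13.8 to 15.7%, and Itgb5 from 11.1 to 13.1% to 21.6 to 26.4%.

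**Figure D3:**
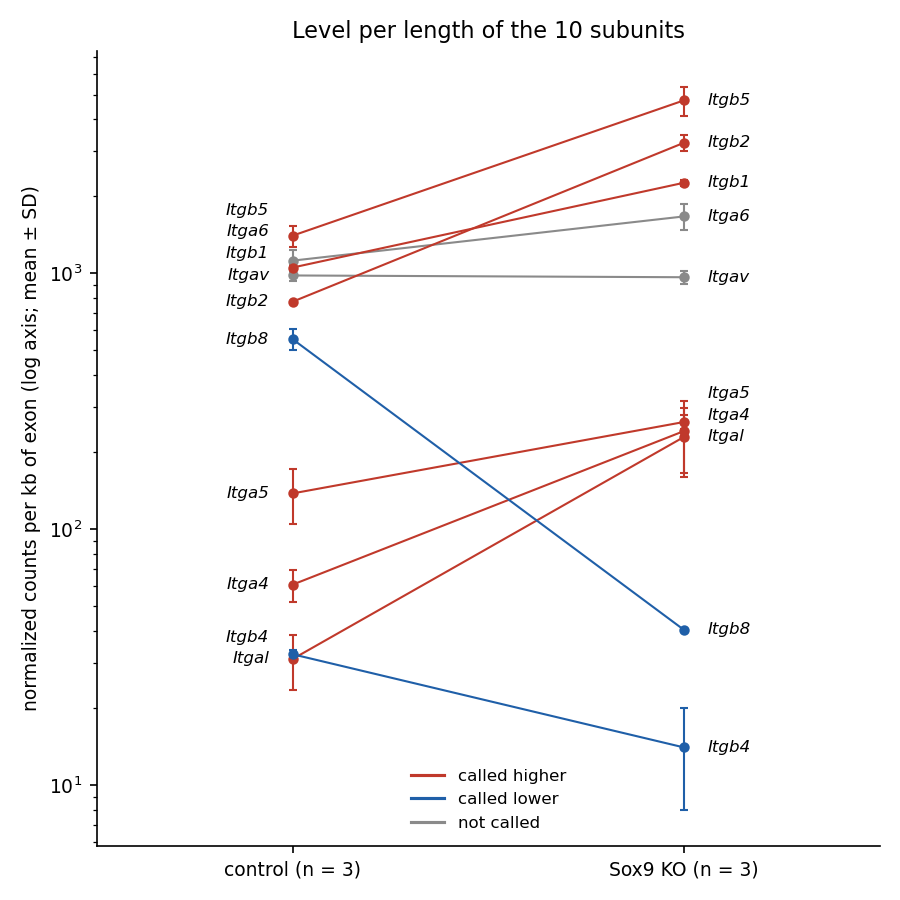
Level per kilobase of exon (normalized counts per kb, log axis) for each member in control and KO, with the mean and SD over 3 mice. Itgb8 goes from 553 to 40.4 and Itgb2 from 775 to 3242, while Itgav averages 981 and 966.

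The ratio of an α to a β subunit of the same receptor, both per kilobase, was compared for 8 pairs. With 3 mice against 3 the smallest two-sided p of an exact permutation test is 0.10, so no pair could pass 0.05. Itgav over Itgb8 was 1.70, 1.78 and 1.86 in controls and 25.8, 23.2 and 22.7 in KO, 13.4-fold higher (exact permutation p = 0.10, adjusted over the 8 pairs 0.114). Itgav over Itgb5 differed the other way, at 0.659, 0.773 and 0.673 in controls and 0.203, 0.187 and 0.225 in KO, a log2 difference of -1.78. Per unit of αv RNA, β8 RNA was thus scarcer and β5 RNA more plentiful in every KO library. All pair ratios are over the mixed sorted cells of a library, so they do not give the balance of subunits in any single cell type. Itgav over Itgb1 was also lower in every KO library, with a log2 difference of -1.12.

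The laminin pairs split as well. Itga6 over Itgb4 was 34.5, 38.0 and 30.9 in controls and 182, 88.1 and 124 in KO, a log2 difference of 1.87, and Itga6 over Itgb1 differed by -0.53. Itga5 over Itgb1, the fibronectin receptor, was 0.102, 0.164 and 0.127 in controls and 0.109, 0.119 and 0.121 in KO, with overlapping groups, a log2 difference of -0.15 and an exact permutation p of 0.7. Itga5 was the only α subunit of the 8 pairs whose ratio overlapped between the groups. Itga4 over Itgb1 was higher in every KO library by 0.85 on the log2 scale. Itgal over Itgb2 was 0.029, 0.044 and 0.047 in controls and 0.088, 0.062 and 0.061 in KO, a log2 difference of 0.81. The 7 pairs without overlap all had an exact permutation p of 0.10.

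**Figure D4:**
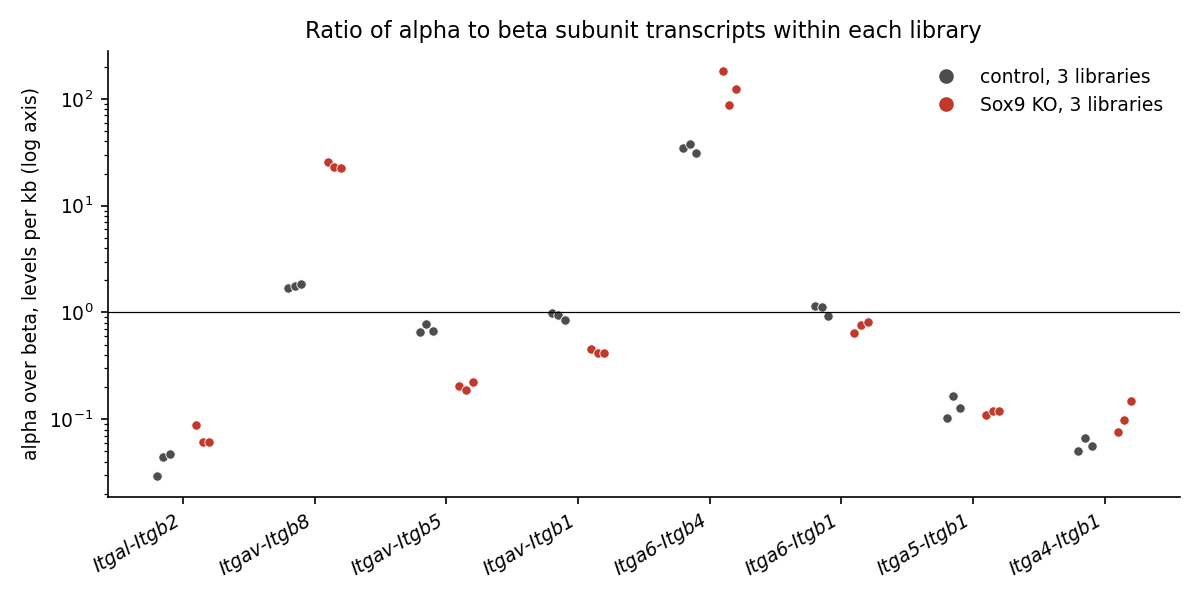
Ratio of α-subunit to β-subunit level per kilobase on a log axis for the 8 receptor pairs, 1 point per library. The KO points of Itgav over Itgb8 sit between 22.7 and 25.8 against 1.70 to 1.86 in controls, and those of Itga5 over Itgb1 lie within the range of the controls.

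Members were then set against the summed markers of each cell type, in normalized counts per 1000 marker counts. Itgb8 was at 11.1, 10.1 and 9.98 per 1000 astrocyte marker counts in controls and at 11.2, 8.92 and 9.98 in KO, so the groups overlapped (log2 difference -0.05, exact permutation p = 0.8). Leaving out any 1 library gave a log2 difference of -0.13 to 0.03. Itgb2 was at 9.87, 11.2 and 11.3 per 1000 microglia and macrophage marker counts in controls and at 11.1, 10.4 and 11.2 in KO, again overlapping (log2 difference 0.02, exact permutation p = 0.9). The change of Itgb8 was thus as large as that of the summed astrocyte markers, and that of Itgb2 as large as that of the summed microglia and macrophage markers, within the spread of these mice. The sums weigh abundant genes most, with Slc1a2 at a mean of 258895 of the 588574 astrocyte marker counts in controls. Single astrocyte markers had log2 fold changes from -5.25 to -2.72, and single microglia and macrophage markers from 0.16 to 2.70. A match to a sum is thus not a match to each marker. The markers of oligodendrocyte precursors and of neurons fell too, and no ratio to them was computed. A total of 26 such ratios was computed. As for the pairs, the exact permutation p of 3 mice against 3 cannot go below 0.10, so no ratio could pass 0.05. The smallest adjusted p among them was 0.124.

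The remaining members varied in this respect. Against the microglia and macrophage markers, Itga4 overlapped between the groups (log2 difference -0.09), Itgb5 was lower in every KO library (-0.29) and Itgal higher in every KO library (0.83), from a mean of 0.94 to 1.65 per 1000. Itgb1, Itga5, Itga6 and Itgav were lower relative to these markers in every KO library, with log2 differences of -0.94, -1.09, -1.47 and -2.07. Itgb4 and Itgb8 were lower relative to them as well, with -3.34 and -5.81. The summed astrocyte markers fell 13.1-fold, and relative to them every member except Itgb8 was higher in every KO library. These log2 differences ran from 2.42 for Itgb4 and 3.69 for Itgav up to 6.59 for Itgal. What part the shift in marker RNA has in each member's change was not tested.

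The other integrin subunits, a list of 17 of which 16 were tested, held 5 genes that rose, 4 that fell and 7 that were not called, against 22.2% and 28.8% of all genes, and their median log2 fold change was 0.15. Quantile scaling gave 9 higher and 3 lower. The partners of β2 were among the risers. Itgam, which encodes αM (CD11b) of the complement receptor αMβ2, was at 21780, 20100 and 24777 normalized counts in controls and at 66395, 66557 and 69229 in KO, a 3.03-fold rise (adjusted p 5.1e-07, limma). Per kilobase it stood at 4423 in controls and 13414 in KO, above Itgb2 and every other integrin subunit listed. Itgax, which encodes αX (CD11c), rose from 345, 685 and 925 normalized counts to 3897, 3470 and 4383, a log2 fold change of 2.69. Relative to the microglia and macrophage markers Itgam was lower in KO (log2 difference -0.44) and Itgax overlapped (0.65).

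Itga9, whose α9 pairs with β1 and holds tenascin-C and VCAM-1, rose from a mean of 1086 ± 90.3 to 3956 ± 58.5, and Itgb3, a further partner of αv, rose from 501 ± 54.9 to 1177 ± 416. Itgad, a β2 partner, rose with a log2 fold change of 1.99 from a mean of 8.39 normalized counts. The subunits that fell were α partners of β1 with collagen or laminin as ligand. They were Itga7, from 269 ± 40.9 to 46.2 ± 20.3, Itga1, from 432 ± 35.5 to 103 ± 42.9, Itga2, with a log2 fold change of -2.96, and Itga3, with -1.15. Itgb7, the other partner of α4, averaged 37.8 in controls and 35.8 in KO and was not called. Mural cells also use α1 and α7, and 3 of 6 mural markers were lower. Their part was not tested.

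Ligands of integrins and proteins of the latent TGF-β complex fell more often than they rose. Of 52 genes listed 51 were tested, of which 9 rose (17.6%), 28 fell (54.9%) and 14 were not called, against 22.2% and 28.8% of all genes, with a median log2 fold change of -0.78. Ligands of αv receptors were found in both directions. Mfge8, which encodes MFG-E8, the αvβ5 ligand that bridges to dying cells, went from 2711, 2848 and 2620 normalized counts to 99.3, 127 and 97.2, a log2 fold change of -4.66 (adjusted p 6.3e-09, limma). This ligand fell while the Itgb5 subunit rose. Vtn, which encodes vitronectin, fell from 912 ± 139 to 567 ± 105. Of the same list of ligands, Edil3, Cyr61, Tnc, Fbn1 and Ctgf were also called lower. Postn (periostin) rose from 266 ± 41.7 to 667 ± 168 and Npnt (nephronectin, a protein with an RGD motif) from 852 ± 134 to 2121 ± 337, and Spp1 (osteopontin) averaged 4255 and 6771 normalized counts with overlapping groups and was not called.

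The genes of TGF-β and of its latent complex divided. Of the forms that αvβ8 releases, Tgfb1 rose from 1031 ± 160 to 2841 ± 554 and Tgfb3 fell from 75.2 ± 11.8 to 43.6 ± 7.67. Tgfb2, whose latent form lacks the RGD motif, fell from 2134 ± 269 to 260 ± 89.5, Ltbp1, which ties latent TGF-β to the matrix, fell from 2276 ± 329 to 231 ± 46.5, and Lrrc32 (GARP), which holds it on a cell surface, fell by 3.55 on the log2 scale. Nrros, which holds latent TGF-β1 on microglia, rose from 1777 ± 131 to 5525 ± 505. Each of these 6 genes was without overlap between the groups. In the KO libraries, then, Tgfb1 and Nrros were higher and Tgfb2, Tgfb3, Ltbp1, Lrrc32 and Itgb8 lower.

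Among laminin genes, Lama5 fell from 1063 ± 278 to 48.7 ± 17.7, Lama2, of the laminin at astrocyte endfeet, from 1398 ± 198 to 221 ± 38.0, and Lamb2 from 738 ± 56.1 to 150.5 ± 35.1, while Lamb1 averaged 75.2 and 99.3 and was not called. Jam2, a junction protein that α4β1 holds, fell from 16519 to 1961. Fn1, which encodes fibronectin, was called lower from a mean of 1808 ± 491 to 999 ± 449 although the groups overlapped. Ligands of leukocyte integrins differed in direction. C3, the complement protein whose fragments αMβ2 holds, rose from 593, 832 and 919 normalized counts to 14914, 9424 and 6560, all KO libraries far above the controls. Vcam1, the α4β1 ligand, rose from 3357 ± 59.0 to 9899 ± 2801, Thbs1 from 844 ± 164 to 3973 ± 496, and Icam1, the αLβ2 ligand, averaged 3699 and 4411 with an adjusted p of 0.059 from limma and was not called. Icam5, a further αLβ2 ligand, fell from 97.2 ± 26.0 to 24.2 ± 3.03, and Jam3, which αMβ2 holds, from 544 ± 62.8 to 226 ± 3.58.

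Activators and adaptors, which bind integrin tails and tie them to actin or to kinases, included both directions. Of 51 genes listed 50 were tested, 21 rose (42%), 14 fell (28%) and 15 were not called, against 22.2% and 28.8% of all genes, with a median log2 fold change of 0.27. Members of a family diverged. Fermt2, which encodes kindlin-2 of most adherent cells, went from 6095, 6714 and 4828 normalized counts to 223, 366 and 325 (log2 fold change -4.28, adjusted p 3.6e-08, limma), while Fermt3, which encodes the blood-cell kindlin-3, went from 900, 835 and 700 to 3205, 3316 and 2660 (1.91, adjusted p 4.9e-07, limma). The parvins showed the same contrast, with Parva at -3.82 and Parvb at -2.16 on the log2 scale and the leukocyte Parvg at 1.54. So did the focal adhesion kinases, Ptk2 (FAK) at -2.27 and Ptk2b (PYK2) at 1.28.

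The scaffold Bcar1 (p130Cas) fell by 3.24 on the log2 scale. Among kinase and adaptor genes, the Src-family gene Lyn rose from a mean of 11625 to 26799 normalized counts, Syk by 1.88 on the log2 scale and Dok1 by 1.96, while Src and Fyn, of the same family as Lyn, fell by 0.89 and 1.48. Rasgrp2, an integrin activator of blood cells, fell by 1.83. Both talin genes, whose products switch integrins on, were higher, Tln1 by 1.37 and Tln2 by 1.03. The tetraspanin gene Cd82 rose by 1.97, and Cd81, the most abundant of the list, averaged 48775 and 44490 normalized counts with overlapping groups and was not called. Cd9 rose from 6486 to 15157.

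**Figure D5:**
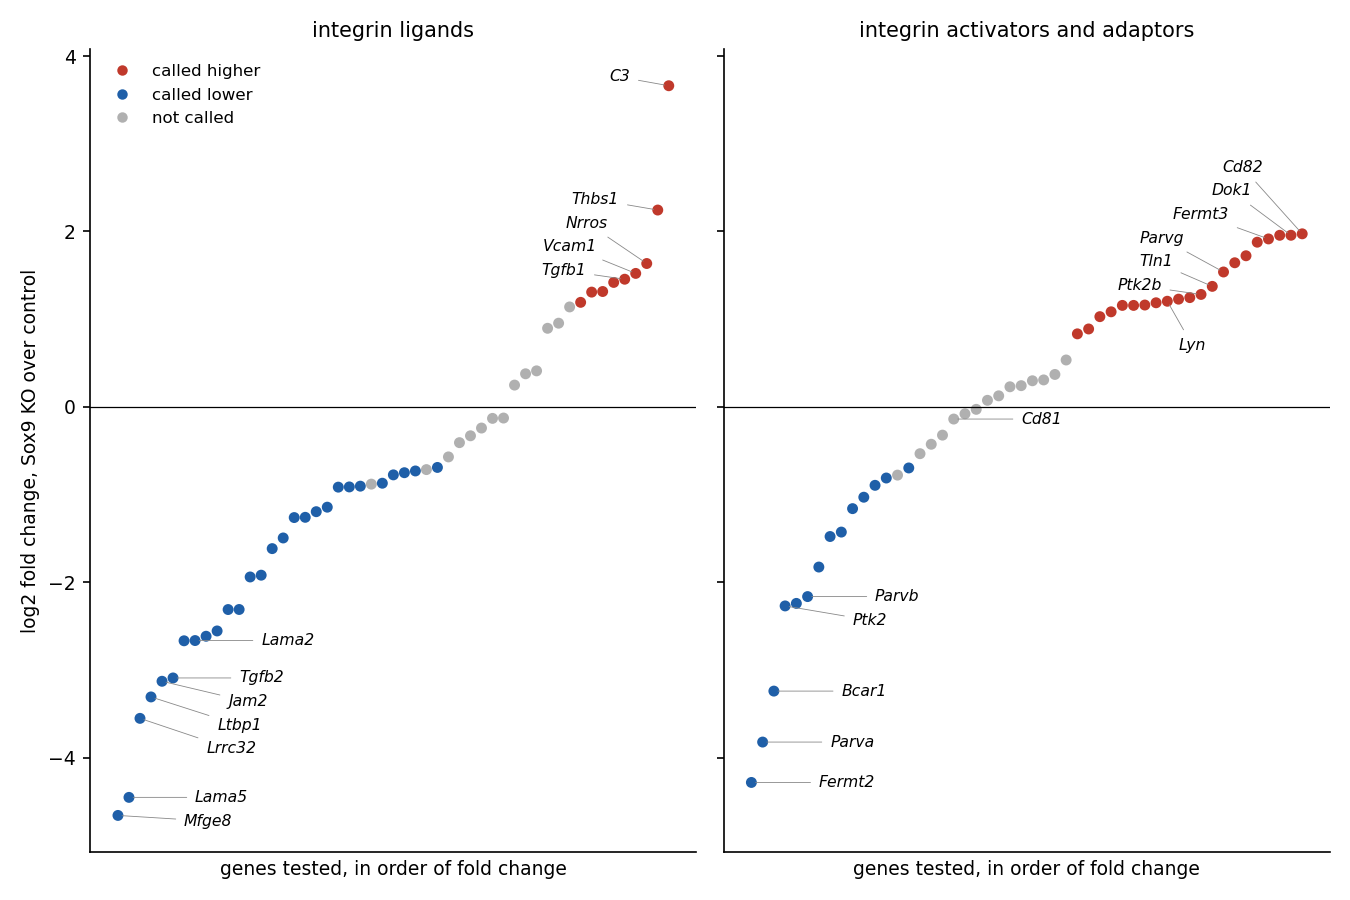
Log2 fold change of KO over control for the integrin ligand genes and for the activator and adaptor genes, 1 point per gene in order of change within each list, red for called higher, blue for called lower and grey for not called. Ligands lie mostly below 0, with Mfge8 at -4.66 and C3 at 3.66, and adaptors lie on both sides, with Fermt2 at -4.28 and Fermt3 at 1.91.

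The genes most like Itgb8 and Itgb2 across the 6 libraries were named by Pearson's r of log2 values. The candidates were the 11916 genes outside the members with a mean of at least 100 normalized counts. For Itgb8 they were Ahcyl1 (r = 0.9999), Slc6a11, an astrocyte GABA transporter gene (0.9998), and Slc38a3, a glutamine transporter gene (0.9998). For Itgb2 they were Hltf, Gm13157 and Bmp2k, with r of 0.9998. With 2 groups of libraries this far apart such values were common, and 888 of these candidates had r over 0.99 with Itgb8 and 875 with Itgb2. The likeness describes 6 libraries that share the contrast of KO and control.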

How the data were processed

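RNA-seq was analysed in 3 control and 3 Sox9 KO libraries of sorted OB cells, prepared by the authors from total RNA. The authors' methods and processing notes name STAR 2.5.0a, mm10, GenomicAlignments counting and DESeq2 1.20.0, while the sources used here do not give gene annotation or strandedness. In the deposited files each gene has 1 signal value, labelled RPM. Since the values of a library divide evenly by a common step (tolerance 0.01 read), they are counts over 1 size factor; in KO replicate 1 this step is close to 1 and was read from the full digits. Genes with a mean of at least 1 were compared on log2(normalized count + 1) with limma 3.58.1 in R 4.3.3, with a variance trend and Benjamini-Hochberg adjustment, two-sided. Such fold changes understate those of low genes. Means are given ± SD over 3 mice. Recovered reads were also tested with edgeR 4.0.16 and DESeq2 1.42.0. The scripts were tested on simulated data. Libraries of a group differed by far more than counting noise. Levels per kilobase used summed exons of GENCODE M21. Ratios were tested by exact permutation, two-sided, with SciPy 1.17.1.

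Members and lists (other subunits, ligands, adaptors, cell markers) were chosen with earlier results of these data known. All members were described. From each other list the 4 called genes with the largest change in each direction, among those with a mean of at least 100 and no overlap, were named, with the 2 of highest mean, and 1 gene that this rule names is not reported here. Other list genes named (Tgfb1, Tgfb2, Tgfb3, Spp1, Npnt, Postn, Vtn, Edil3, Cyr61, Tnc, Fbn1, Ctgf, Icam5, Jam3, Rasgrp2, Lama2, Lamb1, Lamb2, Fn1, Icam1, Parvb, Parvg, Ptk2b, Syk, Src, Fyn, Tln1, Tln2, Cd9, Itgad, Itga2, Itga3 and Itgb7) were picked after their values were seen. The leave-one-out ranges of marker ratios were added after seeing the data.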

Additional observations from a re-analysis of the deposited data

How the results depend on the processing

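Of 170 member log2 fold changes under the alternatives, 162 kept their direction and side of the threshold. Itgav, never called, turned to 0.029 with edgeR, to 0.0065 without control replicate 1 and to 0.017 without KO replicate 3 (without 1 replicate, -0.067 to 0.017). Itga6 was called with edgeR at 0.63 and, among the values of 0.49 to 0.67 without 1 replicate, without control replicate 1, control replicate 2 or KO replicate 1. Scaled by quantiles, to the same total or to that total without Rn45s, Itga6 was at 0.05, 0.33 and 0.245. Limma then gave adjusted p of 0.74, 0.053 and 0.11. Quantile scaling left 1 member called lower, with Itgb4 at -0.63, and gave 9 other subunits called higher; no other of the 152 counts moved by over 1.5 times. It shifted the median log2 fold change of all genes by 0.27, to 0.20, scaling to the same total by -0.23, to -0.29, and the latter without Rn45s, a ribosomal RNA gene, by -0.31, to -0.37; the share of lower genes among those called was 56.4%, and 43.2%, 67.8% and 71.5% under these scalings. The 56 pair ratios and 120 marker ratios stayed within 1 SD of the main log2 difference, the larger SD of the 2 groups, which allows a change of sign near 0. Without 1 library, Itga5 over Itgb1 ran from -0.31 to 0.03. Relative to the microglia and macrophage markers Itga4 ran from -0.38 to 0.18 and Itgb2 from -0.05 to 0.05. Itgb8 relative to the astrocyte markers ran from -0.13 to 0.03. Levels per kilobase by the longest transcript were, in controls, 2349 for Itga6, 1128 for Itgb1, 1495 for Itgav, 797 for Itgb2, 728 for Itgb8, 86.9 for Itga4, 36.6 for Itgb4 and 39.1 for Itgal, and, in KO, 2419 for Itgb1, 3497 for Itga6, 1471 for Itgav, 293 for Itga5, 346 for Itga4 and 53.1 for Itgb8; the causes were not tested beyond the shorter length. Replicate numbers did not pair the mice (correlations of same-numbered libraries -0.05, -0.01 and -0.01), and a replicate block kept 6 members higher and 2 lower, with Itgb8 at -3.77. Itgb4 in KO rested on as few as 55 reads.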
